A study of Drosophila melanogaster with 16 samples.

Results

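The genes described here are 43 guidance and synaptic adhesion genes of *Drosophila melanogaster*: the ligands and receptors that steer growing axons, the surface proteins that match synaptic partners, and 3 cytoplasmic proteins that act behind them. They were chosen by gene symbol, with earlier results of these data known. Every exon entry of the count files that carries 1 of the 43 symbols was used. Exon entries are exon intervals of annotated transcripts, so that entries of 1 gene can overlap each other. The 43 genes hold 668 of the 87508 exon entries and are 43 of the 17753 genes in the files.

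The 16 libraries were made from whole heads of flies 10 to 12 days after eclosion, from males and females, with about 1000 flies in each sample. Each sex has 4 biological replicates of a TRAP library and 4 of a total mRNA library. TRAP, which stands for translating ribosome affinity purification, isolates tagged ribosomes through GFP fused to a large subunit protein, together with the mRNA they carry, and total mRNA is the lysate before that step. All flies of the 4 groups had the same genotype, w (on the X in females, over Y in males), UAS-Gal4 and UAS-GFP::RpL10A, with fru P1-Gal4 over a wild-type chromosome. The Gal4 driver follows the P1 promoter of *fruitless* (*fru*), so the tag is made in the neurons that use this promoter, which are present in both sexes, and the UAS-Gal4 copy raises the amount of Gal4 made in them. No group lacked the tag. TRAP against total mRNA therefore compares tagged with all head mRNA of the same genotype, and it does not show how much untagged mRNA stayed on the beads.

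Axons are steered by secreted and membrane-bound cues that bind receptors on the growth cone. Slit acts through Robo receptors, Netrins through Frazzled (DCC in vertebrates) and Unc-5, and semaphorins through plexins, and these receptors converge on the actin cytoskeleton through proteins such as Abl, Enabled and Trio. Once axons arrive, cadherins, teneurins, leucine-rich repeat proteins and the neurexin and neuroligin pair hold matching partners together, and many of these proteins stay at adult synapses. *fru* P1 neurons form much of the circuit for courtship, and the comparisons here ask which of these genes give more of the mRNA bound to tagged ribosomes than of all head mRNA and whether the sexes differ.

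Total exon counts ran from 15353672 to 25419045 per library. Levels are given below as normalised CPM, which are counts per 1000000 exon counts after scaling by TMM factors over the 16 libraries. Differences between groups come from edgeR's exact test on exon counts, with Benjamini-Hochberg adjustment (FDR) over all exons tested and a call at an FDR below 0.2. An exon was tested if it exceeded 2 CPM in at least 60% of the libraries compared. Each gene is read at its leading exon, the tested exon with the highest mean normalised CPM, and ± after a log2 fold change is its standard error from edgeR's quasi-likelihood fit. As a check of the pull-down, all 8 *fru* exons tested in males and all 9 tested in females were higher in TRAP, with median log2 fold changes of 0.98 and 1.33.

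Markers of other head cells moved with the same contrast. Of 11 neuronal genes, 10 were higher in TRAP in males and 11 in females, and their summed level was 3673 to 4506 normalised CPM in the male TRAP libraries against 1648 to 2853 in male total mRNA, and 3423 to 5164 against 1395 to 2035 in females. All 13 photoreceptor genes were lower in TRAP in both sexes, with summed levels of 5627 to 10605 against 21095 to 25984 in males and 3603 to 5906 against 16442 to 20160 in females. The glial genes were lower too, 10 of 10 tested in males and 9 of 9 in females, with summed levels of 207 to 389.9 against 756 to 832 in males and 163 to 258 against 637 to 698 in females. Fat body genes were lower for 4 of 7 tested in males and 7 of 7 in females, and muscle genes for 5 of 7 in each sex, with 1 muscle gene higher in females. No gene of these lists was at 0 throughout. The part of cell composition in the values of the guidance genes was not tested. Where total mRNA is compared between the sexes, fewer cells of a type and less RNA per cell cannot be told apart in such bulk samples.

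Several libraries stood apart from their group over the guidance genes. In male total mRNA, replicate 1 was the lowest of the 4 libraries for 30 of the 38 tested members, with a median log2 difference of -0.49 from the other 3 libraries, against -0.07 over all tested genes. Female TRAP replicate 3 was the lowest of its group for 27 members and male TRAP replicate 4 for 26, with median differences of -0.33 in both, against -0.20 and -0.04 over all genes. Female total mRNA replicate 5 was the highest of its group for 27 members and female TRAP replicate 5 for 25. Results were therefore recomputed with each library left out.

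Among the 43 genes, 38 had at least 1 exon that passed the filter in each comparison, and 5 did not. The 5 below the filter were *NetA*, a Netrin, *Ptp52F*, a receptor tyrosine phosphatase, *otk*, a PTK7-like receptor, *dnt*, a Ryk-family receptor, and *Nlg1*, a neuroligin. Their highest exons stayed between 0.0426 normalised CPM in 1 male TRAP library, for *Ptp52F*, and 2.80 in 1 female total mRNA library, for *dnt*. Summed over its exons, *Nlg1* had 14 to 17 reads in the male TRAP libraries and 3 to 24 in the female ones, and *NetA* had 15 to 44 and 20 to 24. In the fits without a filter on low counts these 5 genes were tested as well, and none was called in the 4 comparisons by edgeR's exact test or in the interaction of sex and fraction by its quasi-likelihood test. The smallest p of those tests was that of *Ptp52F* in females, with a log2 fold change of -1.18 in TRAP (edgeR exact test, unadjusted p = 0.109, FDR 0.219). In males *Ptp52F* was at -1.23 (FDR 0.269).

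Per kilobase of exon, the levels in male TRAP spanned a wide range. The highest mean was that of *trio*, with 26.8 ± 2.42 normalised CPM per kb (SD, n = 4), followed by *Nrx-1* with 22.4 ± 1.999 and *Ten-a* with 21.2 ± 2.97. *Nrx-1* and *Ten-a* lie within 1 SD of each other, and *trio* lies above both by more than 1 SD. In female TRAP the same measure gave 29.7 ± 2.09 for *trio*, 28.8 ± 7.62 for *Ten-a* and 24.8 ± 4.34 for *Nrx-1*, with *trio* and *Ten-a* within 1 SD of each other. At the low end of the tested members, *robo2* had 1.55 ± 0.215 in male TRAP and 1.80 ± 0.108 in female TRAP, and *fra* had 1.85 ± 0.292 and 1.71 ± 0.274.

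In males, 23 of the 38 tested members were higher in TRAP than in total mRNA and 3 were lower, and 12 were not called. Over all genes tested in that comparison, 38.1% were higher and 30.6% lower by the same rule. The median log2 fold change of the members was 0.63, against 0.14 over all genes, and single members ran from -1.24 (*Sema5c*) to 1.40 (*trio*). Counted by exon, 114 of the members' 228 exons were higher and 16 lower, against 31.4% and 29.5% of all exons. In 18 of the 38 members the male TRAP and total mRNA libraries did not overlap, whatever the direction, against 49.4% of all genes, and 68.7% of all genes were called in either direction. In females, 29 of 38 were higher and 2 lower, against 52.3% and 31.4% of all genes, with a median of 0.84 against 0.33 and a range from -1.41 (*Sema5c*) to 2.16 (*Nrx-1*). Of 182 exons, 108 were higher and 14 lower, against 40.7% and 36.9%. In 26 of the 38 members the female groups did not overlap, against 67.8% of all genes, and 83.7% of all genes were called in either direction. In both sexes the share of members without overlap was thus near that of all genes. All 23 members higher in males were also higher in females, and *Sema5c* and *Sema1b* were lower in both sexes. The 11 neuronal markers had larger median log2 fold changes than the members, 0.80 in males and 1.40 in females.

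**Figure D1:**
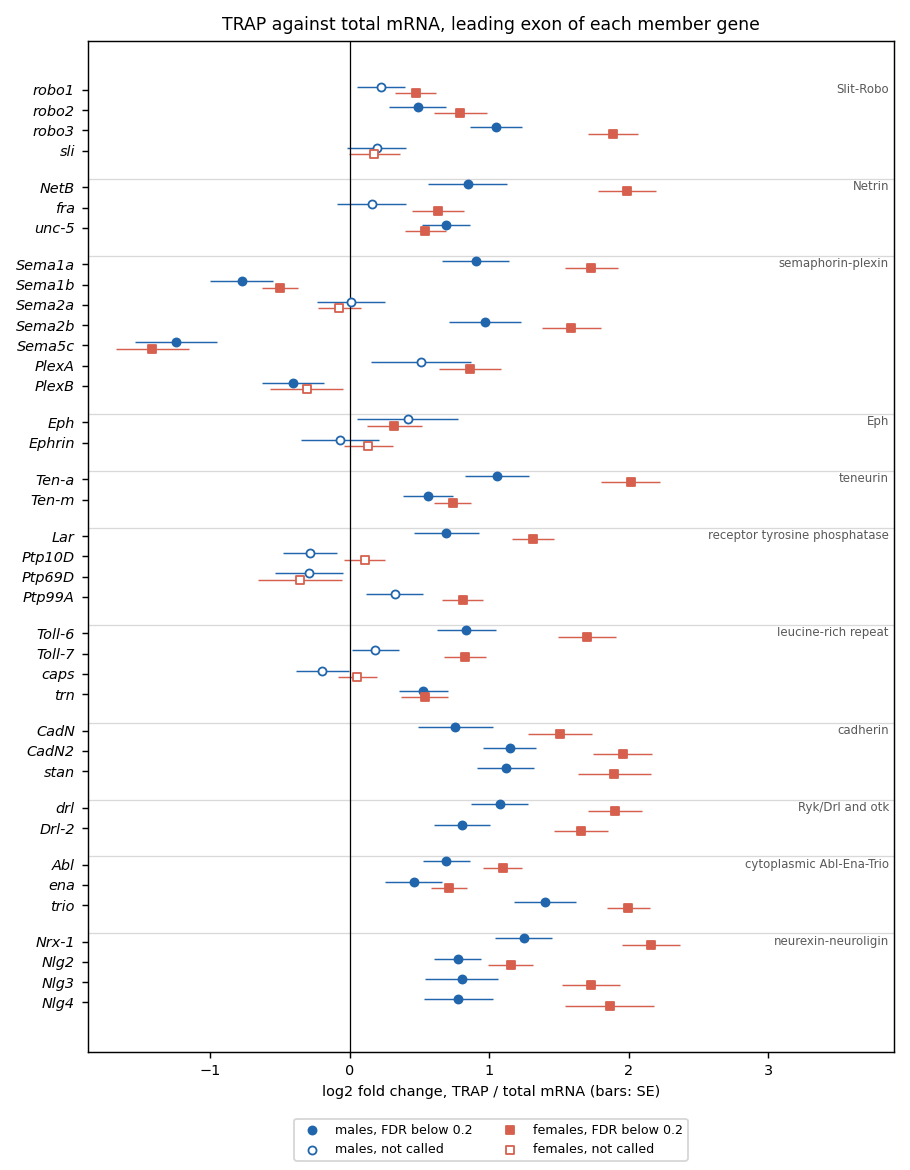
Log2 fold change of TRAP against total mRNA (x axis) in the leading exon of each of the 38 tested members (y axis, grouped by role), with males as circles, females as squares, filled symbols for an FDR below 0.2 and bars for the standard error. The cadherin, neurexin-neuroligin, cytoplasmic, teneurin, Ryk/Drl, Netrin and Slit-Robo groups lie wholly above 0 in both sexes. *Sema5c* and *Sema1b* lie below 0, at -1.24 and -0.77 in males.

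The neurexin and neuroligin group was higher in TRAP for all 4 tested members in both sexes. The median log2 fold changes were 0.79 in males and 1.80 in females, with *Nlg4* read at different exons in the sexes, as given below. *Nrx-1*, the presynaptic neurexin, had 111, 119, 89.6 and 97.4 normalised CPM in the 4 male TRAP libraries against 33.4, 48.5, 55.5 and 37.9 in male total mRNA. This exon, with the end of the coding sequence and the 3′ UTR, lies on chromosome 3R at 22482847 to 22486969. In females the values were 113, 103, 153 and 189 against 25.8, 30.5, 33.4 and 43.2. Every TRAP library lay above every total mRNA library in both sexes, with log2 fold changes of 1.25 ± 0.20 in males and 2.16 ± 0.21 in females (edgeR exact test, FDR 1.21e-07 and 6.77e-21). *Nlg2*, a neuroligin, the postsynaptic partner of neurexin, had 51.0, 52.8, 61.8 and 52.4 in male TRAP against 28.8, 31.3, 33.1 and 34.5 in male total mRNA, and 61.8, 48.8, 52.3 and 54.5 against 20.7, 31.3, 25.3 and 28.1 in females. The groups did not overlap, and the log2 fold changes were 0.77 ± 0.17 and 1.16 ± 0.16. *Nlg3* had 38.2, 37.6, 28.4 and 34.1 in male TRAP against 9.79, 23.1, 29.3 and 16.7 in total mRNA, where replicate 3 of total mRNA lay above TRAP replicate 4, so that the male groups overlapped. In females *Nlg3* had 37.5, 29.1, 43.7 and 52.1 against 9.12, 13.9, 12.5 and 16.9 without overlap, and the log2 fold changes were 0.80 ± 0.26 (FDR 0.00972) in males and 1.73 ± 0.21 (FDR 6.59e-14) in females. *Nlg4* was higher by 0.78 ± 0.24 in males, at its most 3′ tested exon, and by 1.86 ± 0.32 in females, at its most 5′ tested exon, on the log2 scale. These values therefore do not compare the sexes at the same exon. The female value at the most 3′ tested exon was 0.94, and the male value at the most 5′ tested exon was 0.93.

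All 3 cadherins were higher in TRAP in both sexes, with medians of 1.12 in males and 1.90 in females. *CadN2*, a classic cadherin next to *CadN* on chromosome 2L, had 18.2, 20.4, 18.2 and 19.6 normalised CPM in male TRAP against 6.76, 9.46, 10.6 and 7.80 in male total mRNA. Its female values were 17.2, 17.9, 22.6 and 28.3 against 4.08, 5.60, 6.11 and 7.93. The libraries of the 2 fractions did not overlap in either sex, with log2 fold changes of 1.15 ± 0.19 (edgeR FDR 2.62e-07) and 1.96 ± 0.21 (FDR 1.66e-16). *CadN*, which holds layers and partners together in the visual system, had 85.7, 74.5, 48.0 and 68.2 in male TRAP against 20.2, 50.1, 54.9 and 37.5 in male total mRNA. In males TRAP replicate 4 lay below total mRNA replicates 2 and 3, and the female groups, 76.0, 54.5, 83.8 and 97.3 against 20.4, 25.4, 28.5 and 42.9, did not overlap. The log2 fold changes of *CadN* were 0.76 ± 0.27 (FDR 0.0169) and 1.51 ± 0.23 (FDR 2.46e-09). *stan*, the seven-pass cadherin Flamingo, was higher by 1.12 ± 0.20 and 1.90 ± 0.26 on the log2 scale, without overlap in either sex.

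The 3 cytoplasmic proteins were higher in TRAP in both sexes, with medians of 0.69 and 1.10. *trio*, a guanine nucleotide exchange factor that acts in axon guidance, had the largest male value of any member. It had 219, 271, 225 and 195 normalised CPM in male TRAP against 55.2, 99.8, 107 and 81.9 in male total mRNA, in its last exon, coding and 3′ UTR, on chromosome 3L at 995982 to 998291. In females it had 249.9, 213, 309 and 291 against 61.9, 72.1, 68.6 and 82.2. TRAP lay above total mRNA in every library of both sexes, and the log2 fold changes were 1.40 ± 0.22 (edgeR FDR 3.67e-08) and 1.999 ± 0.16 (FDR 2.24e-29). *ena*, a factor that promotes the extension of actin filaments, had 20.5, 27.2, 20.9 and 22.9 in the male TRAP libraries and 12.4, 17.4, 22.2 and 14.5 in total mRNA, where total mRNA replicate 3 lay above 2 of the TRAP libraries. Its female groups, 26.3, 22.2, 27.8 and 28.0 against 16.9, 16.9, 16.6 and 18.1, did not overlap, and its log2 fold changes were 0.46 ± 0.20 (FDR 0.0741) and 0.71 ± 0.13 (FDR 9.26e-06). The male call of *ena* was lost when total mRNA replicate 1 or 4 or TRAP replicate 2 was left out, with an FDR of up to 0.2499. *Abl*, the tyrosine kinase that gives the group its name, was higher by 0.69 ± 0.17 and 1.10 ± 0.14 on the log2 scale, without overlap.

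Both teneurins were higher in TRAP. *Ten-a*, on the X chromosome, had 263, 287, 193 and 286 normalised CPM in male TRAP against 83.7, 134, 166 and 108 in male total mRNA. In females it had 277, 258, 403 and 478 against 69.96, 97.7, 87.8 and 117, the widest spread of any female TRAP group named here in absolute terms, with replicates 4 and 5 high. TRAP was above total mRNA in every library, with log2 fold changes of 1.06 ± 0.23 (edgeR FDR 6.01e-05) and 2.02 ± 0.21 (FDR 3.43e-18). *Ten-m*, on 3L, had 100.1, 85.9, 73.4 and 84.0 in male TRAP against 49.8, 66.1, 55.5 and 61.2 in male total mRNA, and 105, 81.5, 104 and 99.96 against 65.0, 60.6, 59.97 and 66.7 in females. Its groups did not overlap either, but the differences were smaller, 0.56 ± 0.18 (FDR 0.0102) and 0.74 ± 0.14 (FDR 5.02e-06).

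The Ryk-family receptors, which bind Wnt5, were higher in TRAP for both tested members. *drl* had 20.7, 23.5, 16.3 and 17.5 normalised CPM in male TRAP against 7.88, 10.4, 11.3 and 7.40 in male total mRNA, and 20.9, 16.8, 25.2 and 28.0 against 4.94, 5.86, 7.60 and 7.67 in females. *Drl-2* had 26.8, 32.0, 20.6 and 26.7 against 10.7, 16.9, 17.9 and 15.01 in males and 30.5, 23.7, 35.7 and 38.3 against 8.92, 9.72, 10.13 and 14.7 in females. No TRAP library of either gene lay below a total mRNA library of its sex. The log2 fold changes of *drl* were 1.075 ± 0.20 (edgeR FDR 6.45e-06) and 1.90 ± 0.19 (FDR 4.44e-18), and those of *Drl-2* 0.81 ± 0.20 (FDR 0.000825) and 1.66 ± 0.19 (FDR 3.01e-14).

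The Slit and Robo group holds the receptors *robo1*, *robo2* and *robo3* and their ligand *sli*. *robo3*, a Slit receptor, had 34.0, 27.4, 25.7 and 24.9 normalised CPM in male TRAP against 11.2, 14.7, 15.6 and 12.6 in male total mRNA, and 35.6, 26.1, 41.6 and 35.6 against 9.22, 9.504, 8.83 and 12.7 in females. The groups did not overlap in either sex, and its log2 fold changes were 1.05 ± 0.19 (edgeR FDR 2.02e-06) and 1.89 ± 0.18 (FDR 2.20e-20). *robo2* was higher by 0.49 ± 0.20 and 0.79 ± 0.19, but its leading exon overlaps 2 antisense or noncoding genes, *asRNA:CR44897* and *lncRNA:CR44898*, and the kit did not keep the strand, so reads of these genes cannot be told apart. *robo1* was called in females only, with log2 fold changes of 0.23 ± 0.17 (FDR 0.346) in males and 0.47 ± 0.15 (FDR 0.0103) in females. *sli*, the secreted ligand, had 43.4, 23.4, 23.5 and 27.7 in male TRAP against 24.3, 30.3, 20.9 and 27.9 in male total mRNA, with TRAP replicate 1 well above the other 7 libraries. Its female values, 25.8, 23.9, 16.01 and 21.2 against 21.1, 21.6, 17.4 and 23.5, overlapped as well, and neither log2 fold change passed the test, 0.19 ± 0.21 (FDR 0.511) and 0.18 ± 0.18 (FDR 0.446).

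For the Netrins and their receptors, the ligand gene *NetB* had the largest values. It had 41.1, 48.2, 27.2 and 37.5 normalised CPM in male TRAP against 10.2, 22.9, 33.1 and 19.0 in male total mRNA, where total mRNA replicate 3 lay above TRAP replicate 4. In females it had 46.5, 38.3, 60.2 and 72.5 against 12.1, 13.0, 13.6 and 19.7 without overlap, and its log2 fold changes were 0.85 ± 0.28 (edgeR FDR 0.0107) and 1.99 ± 0.21 (FDR 1.23e-17). *unc-5*, the receptor for repulsion by Netrin, had 21.4, 20.1, 17.0 and 17.4 in male TRAP against 10.9, 11.7, 12.6 and 12.0 in male total mRNA, without overlap. In females it had 21.7, 17.9, 26.2 and 22.5 against 14.8, 15.2, 18.3 and 16.9, with TRAP replicate 3 below total mRNA replicate 4. Its log2 fold changes were 0.69 ± 0.17 (FDR 0.00101) and 0.54 ± 0.15 (FDR 0.00237), in an exon that overlaps *Pms2* on the opposite strand. *fra*, the receptor for attraction, had 5.50, 4.39, 3.89 and 3.82 in the male TRAP libraries and 2.45, 5.01, 4.41 and 3.94 in total mRNA, which overlapped, and 3.98, 4.18, 4.47 and 5.39 against 3.57, 3.06, 2.84 and 2.98 in females, which did not. It was called in females only, with 0.16 ± 0.25 (FDR 0.662) in males and 0.63 ± 0.19 (FDR 0.00453) in females, and, as for the other members called in 1 sex, the difference between the sexes did not pass the test of the interaction given further on.

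The semaphorins and plexins were the only role group with calls in both directions by leading exon. Of its 7 members, TRAP was higher for 2 and lower for 3 in males, and higher for 3 and lower for 2 in females. *Sema1a*, a transmembrane semaphorin that signals through PlexA and can also act as a receptor, had 94.9, 87.1, 59.3 and 86.2 normalised CPM in male TRAP against 24.9, 51.7, 57.4 and 40.5 in male total mRNA, and 80.7, 63.3, 99.6 and 121 against 25.8, 26.3, 29.3 and 35.8 in females. The groups did not overlap, and its log2 fold changes were 0.90 ± 0.24 (edgeR FDR 0.00148) and 1.73 ± 0.19 (FDR 4.41e-16). *Sema2b*, a secreted ligand of PlexB, had 23.9, 20.5, 14.4 and 18.7 in male TRAP against 5.39, 14.5, 11.2 and 8.29 in male total mRNA, with TRAP replicate 4 just below total mRNA replicate 2. Its female groups, 17.5, 13.2, 20.3 and 23.3 against 6.17, 5.23, 5.74 and 9.32, did not overlap, and its log2 fold changes were 0.97 ± 0.26 (FDR 0.00127) and 1.59 ± 0.21 (FDR 3.83e-11). *Sema2a*, the other secreted ligand, was near 0 in both sexes, at 0.01 ± 0.24 and -0.07 ± 0.16, and was not called.

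*Sema5c*, a transmembrane semaphorin, was lower in TRAP. It had 2.004, 2.11, 1.95 and 5.08 normalised CPM in male TRAP against 7.76, 7.04, 5.91 and 5.55 in male total mRNA, and 2.10, 3.16, 2.59 and 5.72 against 8.15, 8.71, 10.8 and 10.8 in females, in a coding exon on 3L at 12068899 to 12069809. TRAP replicate 5 was the highest TRAP library in each sex and still lay below every total mRNA library of that sex. The log2 fold changes were -1.24 ± 0.29 (edgeR FDR 0.000213) and -1.41 ± 0.26 (FDR 1.03e-06), and all 4 exons tested in males and both tested in females were lower. *Sema1b*, a transmembrane ligand of PlexA, was lower too, with log2 fold changes of -0.77 ± 0.23 (FDR 0.00422) in males and -0.50 ± 0.13 (FDR 0.00216) in females, again in every exon tested, 5 of 5 in each sex. *PlexB*, the receptor of the secreted semaphorins, had 7.08, 4.46, 3.93 and 6.98 in male TRAP against 6.76, 7.69, 7.73 and 7.48 in male total mRNA, and 5.29, 4.39, 2.98 and 3.02 against 4.99, 7.02, 3.95 and 5.33 in females. Both pairs of groups overlapped, and the male call, -0.41 ± 0.22 (FDR 0.157), was lost without total mRNA replicate 2 or 4 or TRAP replicate 2 or 4, with an FDR of up to 0.433. The female value of *PlexB* was -0.31 ± 0.26 (FDR 0.325). With the replicate number as a block in edgeR's quasi-likelihood test it was called in females, at -0.33 (FDR 0.155).

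The receptor tyrosine phosphatases were mixed. *Lar*, which works in motor and photoreceptor axons and at synapses, had 80.4, 62.1, 46.9 and 58.1 normalised CPM in male TRAP against 24.1, 46.5, 47.4 and 34.8 in male total mRNA, where TRAP replicate 4 lay below total mRNA replicate 3. In females it had 57.0, 54.7, 67.3 and 73.3 against 24.3, 26.9, 24.2 and 33.5 without overlap, and its log2 fold changes were 0.69 ± 0.23 (edgeR FDR 0.0125) and 1.31 ± 0.15 (FDR 1.34e-13), in an exon that overlaps *CG46244* on the same strand. *Ptp69D* had 2.69, 1.66, 2.42 and 3.17 in male TRAP against 3.11, 3.02, 3.02 and 2.98 in male total mRNA, and 2.29, 2.09, 2.48 and 1.48 against 2.50, 3.91, 1.48 and 3.68 in females, all at low counts. Its groups overlapped, with -0.29 ± 0.25 (FDR 0.376) and -0.36 ± 0.30 (FDR 0.324). *Ptp10D* was not called in either sex, at -0.28 ± 0.19 and 0.11 ± 0.15, and *Ptp99A* was called in females, at 0.81 ± 0.15, and not in males, at 0.32 ± 0.21.

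Among the leucine-rich repeat proteins, *Toll-6*, a Toll-family receptor for neurotrophins in the fly nervous system, had 22.2, 23.7, 18.6 and 27.6 normalised CPM in male TRAP against 9.37, 13.3, 17.7 and 11.1 in male total mRNA, and 25.3, 20.7, 30.4 and 38.0 against 8.61, 8.34, 7.78 and 12.9 in females. Neither pair of groups overlapped, and the log2 fold changes were 0.84 ± 0.21 (edgeR FDR 0.00102) and 1.70 ± 0.21 (FDR 2.64e-13). *caps*, an adhesion protein of target cells and their partners, had 17.1, 16.6, 17.4 and 24.4 in male TRAP against 16.9, 26.3, 20.1 and 23.2 in male total mRNA, and 22.3, 21.4, 20.3 and 27.2 against 27.4, 22.0, 22.2 and 22.9 in females. Its groups overlapped and it was not called, with -0.20 ± 0.19 (FDR 0.465) and 0.06 ± 0.14 (FDR 0.780). *trn*, a close relative of *caps*, was higher by 0.53 ± 0.18 (FDR 0.0165) and 0.54 ± 0.17 (FDR 0.00716). *Toll-7*, the other neurotrophin receptor of the list, was called in females, at 0.83 ± 0.15 (FDR 4.47e-06), and not in males, at 0.19 ± 0.17 (FDR 0.431).

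The Ephrin and Eph pair lies on chromosome 4 with both plexins. *Eph*, the receptor tyrosine kinase, had 13.7, 8.65, 4.83 and 7.55 normalised CPM in male TRAP against 2.12, 8.94, 8.27 and 6.68 in male total mRNA, with TRAP replicate 1 high and total mRNA replicate 1 low. *Ephrin*, its membrane-bound ligand, had 25.2, 16.1, 12.4 and 16.9 against 9.29, 26.9, 20.9 and 16.6 in males, where total mRNA replicates 1 and 2 were the lowest and the highest of all 8 libraries. In females *Eph* had 9.20, 7.18, 6.07 and 6.71 against 6.27, 5.60, 6.24 and 7.36 and *Ephrin* 18.4, 12.3, 15.6 and 12.1 against 15.6, 13.4, 13.3 and 15.3, and the groups of both genes overlapped. The male log2 fold changes were 0.42 ± 0.36 (edgeR FDR 0.372) for *Eph* and -0.07 ± 0.28 (FDR 0.874) for *Ephrin*. In females *Eph* was called at 0.32 ± 0.20 (FDR 0.188), a call lost when any library other than TRAP replicate 5 was left out, with an FDR of up to 0.671, and *Ephrin* was not, at 0.13 ± 0.18 (FDR 0.561).

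**Figure D2:**
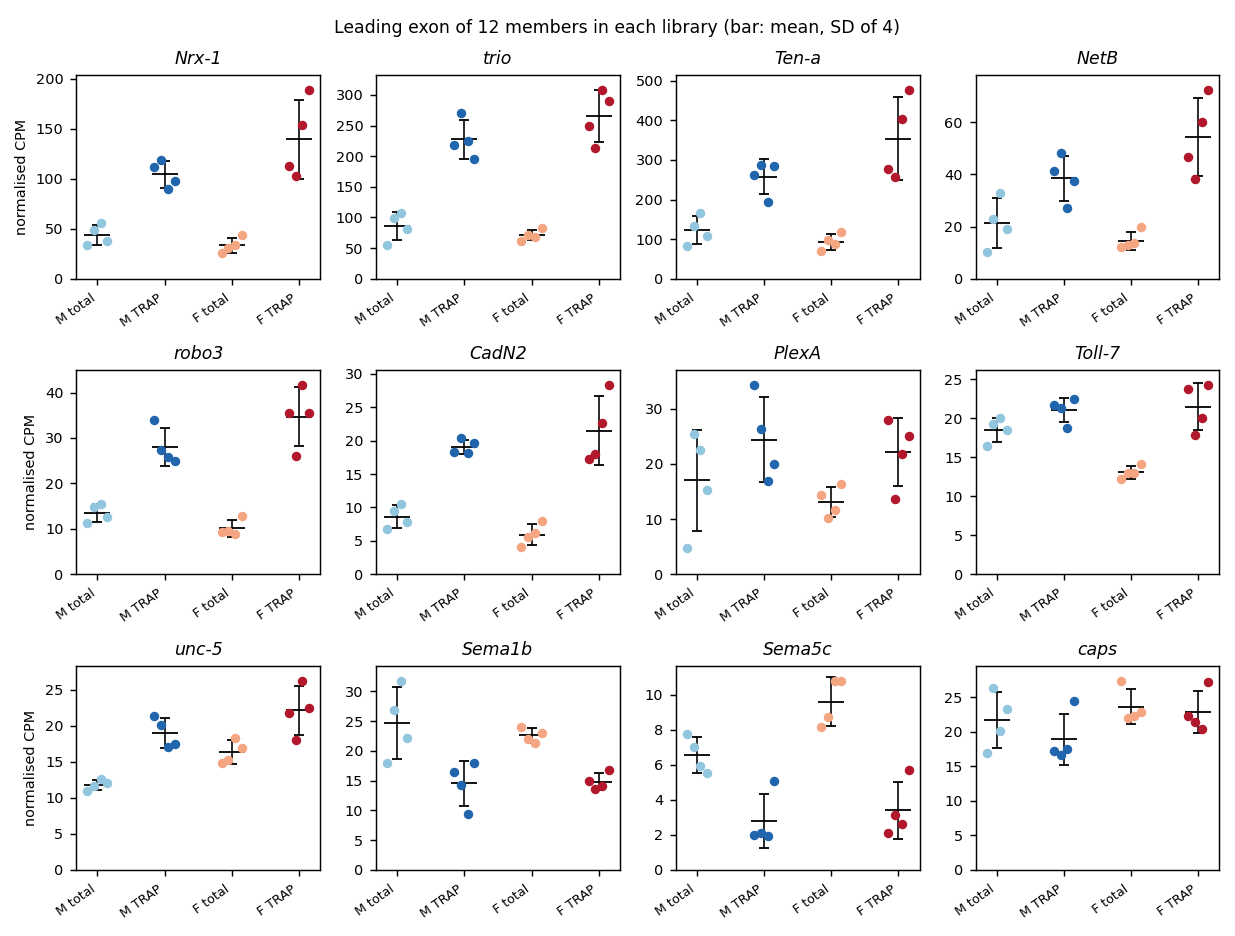
Normalised CPM (y axis, linear, from 0) of the leading exon of 12 members in each of the 16 libraries (points), with M for male, F for female, and the bar and whiskers for the mean and SD of the 4 libraries of a group. TRAP and total mRNA do not overlap in *Nrx-1*, *trio*, *Ten-a*, *robo3* and *CadN2*, the order is inverted in *Sema5c*, and male total mRNA replicate 1 is the low point of *PlexA* at 4.73.

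With male total mRNA replicate 1 left out, 22 members were higher and 4 lower in male TRAP, with a median of 0.51, and with male TRAP replicate 4 left out the counts were 26 and 2. Without male TRAP replicate 5, 6 members were lower, and the count higher stayed at 23. In females the counts ran from 28 to 29 higher and from 2 to 4 lower over the 8 omissions, and the 4 lower came from leaving out total mRNA replicate 4. In all, 24 of the 26 male calls and 30 of the 31 female calls held under every single omission. Same-numbered female TRAP and total mRNA libraries were taken as pairs by their correlation only. With the replicate number as a block 29 members were higher and 3 lower in females. Where libraries were scaled by their totals only, the median over all genes rose to 0.44 in males and 0.73 in females and that of the members to 0.92 and 1.24.

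The values above rest on the end of the transcripts. In males 35 of the 38 leading exons hold 3′ UTR, and 34 are the most 3′ tested exon of their gene. Read at the most 5′ tested exon instead, 15 of 38 members were higher and 5 lower in males, against 26.0% and 32.2% of all genes at that exon, with a median log2 fold change of 0.07 against -0.05 over all genes. In females 20 were higher and 6 lower at that exon, against 35.6% and 40.0% of all genes, with a median of 0.47 against -0.05. Of the 28 members with at least 3 exons tested in males, 20 (71.4%) had a higher log2 fold change at the most 3′ than at the most 5′ exon, against 64.5% of all genes. In females this held for 17 of 23 (73.9%), against 81.5% of all genes.

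*PlexA*, the receptor of the transmembrane semaphorins, showed opposite values within 1 gene. Its longest 3′ UTR exon, on chromosome 4 at 1009895 to 1013768 and annotated in 1 transcript, had 34.2, 26.4, 16.8 and 19.9 normalised CPM in male TRAP against 4.73, 25.5, 22.5 and 15.3 in male total mRNA, and 27.9, 13.7, 21.9 and 25.1 against 14.3, 10.2, 11.7 and 16.4 in females. Total mRNA replicate 1 lay far below the other male libraries, and the groups overlapped in both sexes. The log2 fold change of this exon was 0.51 ± 0.36 (edgeR FDR 0.253) in males and 0.86 ± 0.22 (FDR 0.000658) in females. The coding exon at 1016376 to 1018709, annotated in 4 transcripts, went the other way, at -0.55 ± 0.25 (FDR 0.0795) in males and -0.80 ± 0.22 (FDR 0.00161) in females. The coding exon at 1014966 to 1015352 was lower as well, with log2 fold changes of -0.90 ± 0.25 and -0.87 ± 0.25. *PlexA* reads outside the 3′ UTR were few, with means of 3.80 to 7.15 normalised CPM in the exon at 1016376.

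*Ten-m* was the other member with calls in both directions, in females. Its last exon, at 22293044 to 22297879 on 3L, was higher in female TRAP by 0.74 ± 0.14, while the coding exon before it, at 22297989 to 22301316, was lower, at -0.70 ± 0.31 (edgeR FDR 0.04995). A shorter form of the last exon, which starts at 22293984 and lacks the most distal 3′ UTR, was at 0.27 ± 0.21 (FDR 0.281). In males the same 3 *Ten-m* exons stood at 0.56 ± 0.18, -0.17 ± 0.24 and 0.46 ± 0.19. *Abl* had the same order, with 1.10 ± 0.14 in females in the exon entry that reaches to 16615866 and 0.10 ± 0.21 in its coding part at 16623637 to 16625274, beside 0.69 ± 0.17 and 0.17 ± 0.19 in males. In *Nrx-1* the first coding exon entry, at 22469181 to 22471390, was at 0.07 ± 0.26 in males and 0.09 ± 0.26 in females, against 1.25 ± 0.20 and 2.16 ± 0.21 at the last. In *trio* the 5′-most exon tested, at 1026406 to 1028511, was at -0.14 ± 0.29 in males and -0.11 ± 0.38 in females.

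*Ptp99A* and *Ten-a* did not follow that order. The first 5′ UTR exon of *Ptp99A*, on 3R at 29377646 to 29378024 and annotated in 1 transcript, had a mean of 12.0 normalised CPM in male TRAP against 4.99 in total mRNA, and of 12.2 against 3.22 in females. Its log2 fold changes, 1.27 ± 0.24 (edgeR FDR 6.85e-06) and 2.02 ± 0.28 (FDR 7.30e-11), were larger than those of the *Ptp99A* leading exon in the 3′ UTR, 0.32 ± 0.21 and 0.81 ± 0.15. The 7 most 5′ exons of *Ptp99A* tested in males, each in a single annotated transcript, were all higher, at 0.94 to 1.27, while a 5′ exon of other transcripts, at 29461813 to 29462575, was at 0.11 ± 0.27. *Ten-a* was higher along most of its length, in 17 of 19 exon entries in males and 12 of 14 in females, with 1.56 in males and 2.18 in females at a 5′ coding exon at 12193604 to 12194223. Only the 2 coding exons at 12318043 to 12319427 and 12321915 to 12322459 of *Ten-a* missed the threshold in both sexes, at 0.12 and 0.07 in males and 0.37 and 0.43 in females.

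**Figure D3:**
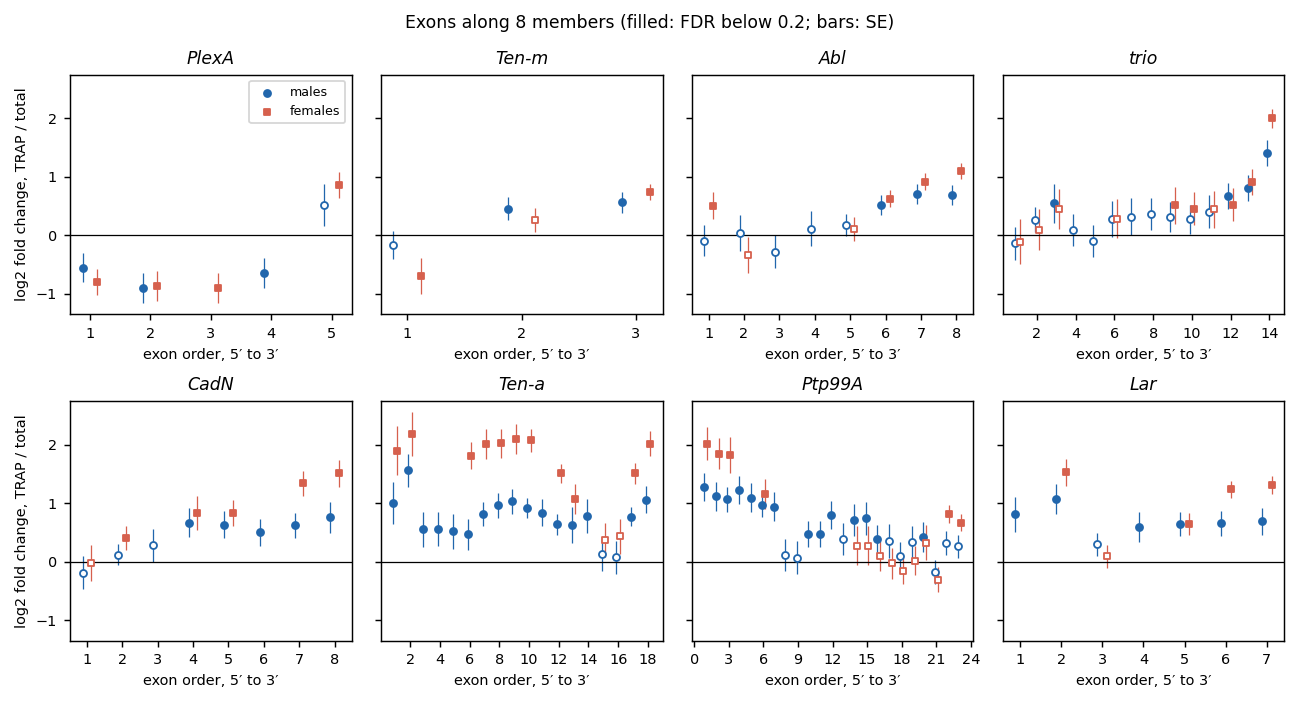
Log2 fold change of TRAP against total mRNA (y axis) of each tested exon of 8 members in order from 5′ to 3′ (x axis), with males as circles, females as squares, filled symbols for an FDR below 0.2 and bars for the standard error. The last exons lie above the first in *PlexA*, *Ten-m*, *Abl*, *trio* and *CadN*, and in *Ptp99A* the first exons are the highest, at 1.27 in males and 2.02 in females.

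*CadN* has pairs of neighbouring coding exons that annotated transcripts use 1 at a time, and 1 of its pairs had enough reads to compare. Over that pair, the upstream exon at 17655669 to 17655910 on 2L took, per base, 80.9%, 84.8%, 88.7% and 81.6% of the reads in the 4 male TRAP libraries. In male total mRNA its share was 68.1%, 67.0%, 71.2% and 64.7%, so that every TRAP library lay above every total mRNA library. The female TRAP libraries had 95.6%, 90.2%, 87.1% and 92.5% and female total mRNA 84.7%, 77.8%, 69.0% and 85.3%, again without overlap. The means were 84.0% ± 3.56 against 67.8% ± 2.68 in males and 91.3% ± 3.60 against 79.2% ± 7.61 in females (SD, n = 4; two-sided exact permutation test, p = 0.0286 in each sex, the smallest that 4 against 4 allows). Adjusted over the 8 exact permutation tests made of such pairs, p = 0.114, which does not pass 0.05. This comparison was added after the data had been seen. Between the sexes the exact permutation p was 0.0571 in TRAP and 0.0571 in total mRNA. The 2 exons together had 26 to 115 reads per library, so these shares are coarse. In *Lar*, the only other pair with at least 20 reads in every library, no comparison had an exact permutation p below 0.143. The downstream *Lar* exon has 46 bases and held only 0 to 13 reads per library, and the SD of the share was 32.4 percentage points in male total mRNA. The *Lar* shares are thus too coarse to show that the groups were alike.

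**Figure D4:**
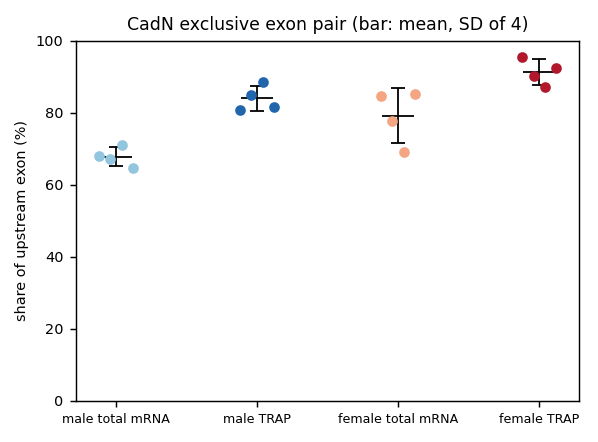
Share of the upstream exon in an exclusive pair of *CadN* exons (y axis, percent of reads per base of the pair) in each library of the 4 groups (points), with the mean and SD of 4 libraries as bar and whiskers. The TRAP libraries lie at 80.9% and above in both sexes and the male total mRNA libraries at 71.2% and below.

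Between the sexes, total mRNA and TRAP gave different pictures. In total mRNA 12 of the 38 tested members were higher in males and 2 lower, against 13.4% and 10.9% of all genes, with a median log2 difference of 0.35 against 0.09. *Toll-7* had the smallest FDR of them, with 16.4, 19.3, 20.04 and 18.5 normalised CPM in male total mRNA against 12.2, 13.0, 13.0 and 14.2 in female total mRNA. These groups did not overlap, and the log2 difference was 0.55 ± 0.13 (edgeR FDR 0.00891), the only call of this comparison that held under every omission of a library. In TRAP *Toll-7* had 21.7, 21.3, 18.8 and 22.5 in males against 23.8, 17.9, 20.04 and 24.2 in females, at 0.01 ± 0.15, and was not called. In total mRNA *unc-5* and *Sema5c* were lower in males, with log2 differences of -0.42 ± 0.14 (FDR 0.0749) and -0.49 ± 0.17 (FDR 0.0778), and the male and female libraries of both, listed above, did not overlap.

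The other members higher in male total mRNA were *robo3*, *sli*, *Sema1a*, *Sema2b*, *PlexB*, *Toll-6*, *CadN2*, *drl*, *Drl-2*, *Nrx-1* and *Nlg3*. Their log2 differences ran from 0.36 ± 0.16 (*sli*) to 0.64 ± 0.29 (*Nlg3*), their FDR from 0.0811 (*Sema1a*) to 0.194 (*sli*), and their male and female libraries overlapped. Of the 38 members, 3 had groups without overlap, *Toll-7*, *unc-5* and *Sema5c*, against 16.5% of all genes, and 24.2% of all genes were called in either direction. *Ten-a*, whose leading exon was not called at 0.45 ± 0.22 (FDR 0.221), had 5 other exons higher in male total mRNA, the strongest a coding exon at 12273935 to 12274240 (log2 difference 0.57, edgeR FDR 0.0403). The count of 12 rested on single libraries. It was 22 without male total mRNA replicate 1, which is low for most members, but 1 without male total mRNA replicate 2 or female total mRNA replicate 2, 2 without female total mRNA replicate 3 and 3 without female total mRNA replicate 4. It was 8 without male total mRNA replicate 3, and the count lower fell from 2 to 1 without male total mRNA replicate 4 and to 0 without female total mRNA replicate 4. Markers moved in the same comparison: 8 of 11 neuronal and 6 of 13 photoreceptor genes were higher in male total mRNA and none lower, with medians of 0.51 and 0.37. Of 10 glial genes, 3 were higher and 1 lower, with a median of 0.30, 5 of 7 fat body genes were lower and 1 higher, and 5 of 7 muscle genes were lower. The part of composition was not tested. The summed fat body level was 51704 to 69219 normalised CPM in the female total mRNA libraries and 1282 to 1887 in the male ones. This sum includes the yolk protein genes *Yp1*, *Yp2* and *Yp3*, which had the lowest log2 differences of the list. The median log2 difference of the fat body list was -0.72. Scaling by library totals moved the median over all exons from 0.04 to 0.33 and the count of members higher from 12 to 30. The share of all genes higher under that scaling is not given.

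In TRAP no member was called between the sexes. Of the 38 members, 0 were called in either direction by edgeR's exact test, beside 2.87% of all genes, and none of their 242 exons, beside 2.28% of all exons. At an unadjusted p below 0.05, 1 leading exon and 12 exons of all passed, and the leading exon was that of *NetB*, lower in males, at -0.45 ± 0.20 (edgeR FDR 0.554), whose libraries overlapped. Over all genes 8.64% passed that unadjusted level at the leading exon. The quasi-likelihood test called 0 leading exons, with 1 at p below 0.05, and DESeq2 also called 0, with 4 at p below 0.05. DESeq2 did call 3 coding exons of *Ten-a*, lower in male TRAP, with log2 differences of -0.53, -0.70 and -0.55 and an FDR of 0.187, 0.163 and 0.122, and edgeR's exact test gave the same exons -0.50, -0.67 and -0.52 with an FDR of 0.280, 0.230 and 0.234. The member medians were -0.12 over the leading exons against -0.05 over all genes. The lowest and highest values were -0.58 ± 0.28 for *Nlg4* and 0.54 ± 0.29 for *PlexB*. Both depended on the exon read: at the most 3′ tested exon *Nlg4* was at 0.14 and *PlexB* at 0.01. A p above the threshold does not show that the sexes were alike: a standard error of 0.15 to 0.37 on the log2 scale for *Ten-m* and *Sema5c* leaves room for modest differences.

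**Figure D5:**
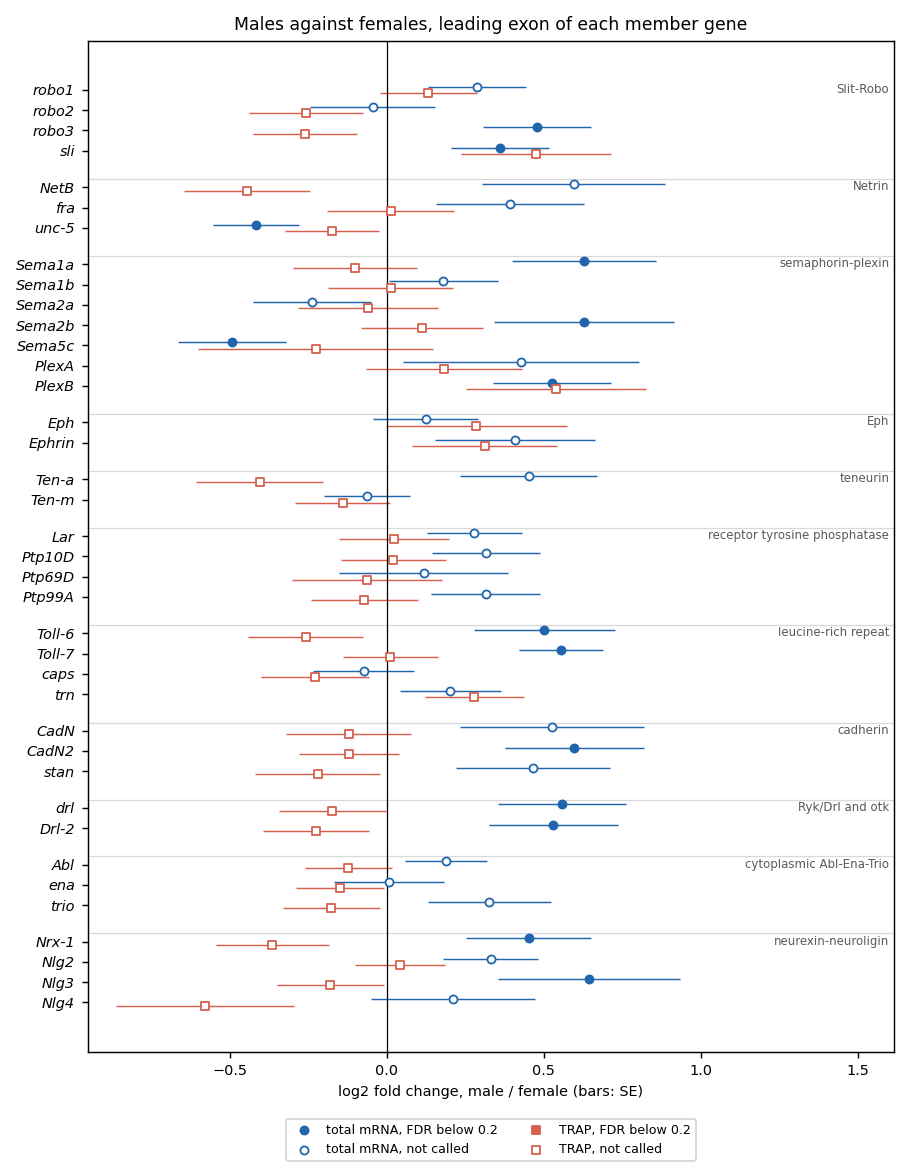
Log2 fold change of males against females (x axis) in the leading exon of each of the 38 tested members (y axis, grouped by role), with total mRNA as circles, TRAP as squares, filled symbols for an FDR below 0.2 and bars for the standard error. In total mRNA 32 members lie above 0 and 14 are called, and in TRAP none is called and 24 lie below 0.

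The female enrichment in TRAP was numerically larger than the male for most members, and the difference itself was tested as the interaction of sex and fraction over all 16 libraries. By edgeR's quasi-likelihood test 0 of 38 members were called, beside 0.131% of all genes, and 0 of their 209 exons, beside 0.0607% of all exons. DESeq2 called 0 leading exons as well. The interaction was below 0, so that enrichment was smaller in males, for 30 of 38 members and 60.9% of all genes, with a median of -0.29 against -0.09 over all genes. The 11 neuronal markers had a median of -0.58 in the same test, with 3 at an unadjusted p below 0.05 and 0 called, while the medians of the photoreceptor, glial, fat body and muscle markers lay above 0, at 0.12 to 0.33. The part of cell composition in the interaction was not tested. At an unadjusted p below 0.05, 11 leading exons passed, all of them below 0, and 9.68% of all genes passed. They were those of *robo3*, *NetB*, *Sema1a*, *Ten-a*, *Toll-6*, *Toll-7*, *CadN2*, *drl*, *Drl-2*, *Nrx-1* and *Nlg3*. Among them *robo3* had an interaction of -0.74 ± 0.25 (edgeR FDR 0.491) and *NetB*, the largest in size of the 38, -1.04 ± 0.39 (FDR 0.491). Where libraries were scaled by their totals alone, 15 members passed the threshold, all below 0, under a shift of the median over all exons from 0.04 to -0.18. The share of all genes that passed under this scaling is not given, so the count of 15 does not set the members apart from other genes. DESeq2 called 2 coding exons of *Ten-a* in the interaction, at -1.10 (FDR 0.0532) and -0.80 (FDR 0.191).

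Further genes of these pathways that are not among the 43 were counted in the same way. Among 18 tested surface proteins and cues, TRAP was higher for 5 and lower for 6 in males and higher for 7 and lower for 9 in females, with median log2 fold changes of -0.25 and -0.13. The shares of all genes higher in TRAP were 38.1% for males and 52.3% for females, those lower 30.6% and 31.4%, and the medians 0.14 and 0.33. The highest in males was *Con* (Connectin, a leucine-rich repeat adhesion protein), at 1.03 ± 0.23 in males (edgeR FDR 0.000152) and 1.85 ± 0.24 in females. The lowest was *comm2*, a relative of the Robo-sorting protein Commissureless, at -1.86 ± 0.20 and -1.76 ± 0.32. Among 31 tested cytoplasmic effectors, TRAP was higher for 13 and lower for 6 in males and higher for 18 and lower for 5 in females, with medians of 0.29 and 0.39, and the shares higher, 13 and 18 of 31, lay near those of all genes. *RhoGAP93B*, which turns off Rac downstream of Robo, was at 1.51 ± 0.23 in males and 2.14 ± 0.16 in females, and *Rac2*, a Rac GTPase, at -1.47 ± 0.27 and -1.47 ± 0.17.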

How the data were processed

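Poly(A)-selected mRNA of 16 libraries (for each sex, 4 of TRAP and 4 of total mRNA) had been made with a kit that does not keep the strand and read as 100-base single ends. Per the study's methods, the authors aligned reads to the dm6 genome with STAR 2.7.2a and counted unique reads per exon entry with featureCounts. These whole-number counts are what they deposited. Coordinates are those of the files (dm6), counted from 1, and 667 of the 668 member entries match the annotation used here. Counts of 36 member entries can include reads of another gene that overlaps them, and 32 entries repeat the counts of another entry of their gene. A deposited RPM table was not used here. Intervals and errors cover these samples only, and depth was 15353672 to 25419045 exon counts per library.

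Each comparison of 8 libraries was fitted over all exons with edgeR 4.0.16 in R 4.3.3: exons above 2 CPM in at least 60% of the libraries, TMM factors, trended and tagwise dispersion, the exact test, Benjamini-Hochberg adjustment and a call at an FDR below 0.2, after the study's methods. The interaction of sex and fraction was an edgeR quasi-likelihood test over 16 libraries. The scripts were tested on simulated counts with 200 changed exons. Results were recomputed with the quasi-likelihood test, with DESeq2 1.42.0, a block for the replicate number, RLE size factors, library totals, other filters, an FDR below 0.05, gene sums, the most 3′ or 5′ exon, and leaving out each library. Levels per kb use counts summed over exon entries of a gene that do not overlap each other.

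Same-numbered female TRAP and total mRNA libraries deviated together from their group means, with correlations of 0.46, 0.24, 0.56 and 0.38 across exons. On that basis alone the female numbers were taken as pairs, since the labels do not state a pairing. Female TRAP replicate 3 correlated more with total mRNA replicate 2 (0.39) than with total mRNA replicate 3 (0.24). The male numbers (-0.0078, 0.094 and 0.22) were not taken as pairs.

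The 43 members and the pathway and marker lists were chosen with earlier results of these data known. Values in every library are given for 28 members: in each role group the largest and the smallest male log2 fold change, up to 10 members with a called exon between the sexes, and up to 5 with exons called in both directions. *Nlg4*, *stan*, *Abl*, *Sema1b* and other members outside that rule were named after their values had been seen. Other pathway genes are given by counts and their extremes.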

Additional observations from a re-analysis of the deposited data

Results flagged for a closer look

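Over 112 groups of 4 libraries tested, 5 held a library whose gap to its nearest neighbour exceeded the critical share of the group's range (Dixon's test), and chance gives about 1 in 20. *Sema5c* had 5.08 normalised CPM in male TRAP replicate 5, with the other 3 libraries from 1.95 to 2.11. *Toll-6* had 12.9 in female total mRNA replicate 5, with the lowest library at 7.78. *caps* had 24.4 in male TRAP replicate 5, where the lowest library held 16.6, and 27.4 in female total mRNA replicate 2, where the lowest held 22.0. *Nlg2* had 61.8 in male TRAP replicate 4, the library that was lowest of its group for 26 of the 38 members, and the other 3 libraries lay between 51.0 and 52.8.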

How the results depend on the processing

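Only results that moved are listed with their values. In males, against 23 members higher and 3 lower in TRAP with a median log2 fold change of 0.63, the most 5′ exon gave 15 and 5 with a median of 0.066, library totals a median of 0.92, and a replicate block 5 lower. Leaving out 1 library gave 22 to 26 higher and 2 to 6 lower. In females, against 29 higher and 2 lower with a median of 0.84, library totals gave 1 lower and a median of 1.24, no filter 1 lower, gene sums 4 lower and a median of 0.55, and the most 5′ exon 6 lower and a median of 0.47. At that exon *Ten-m* (-0.70) and *PlexA* (-0.80) turned from higher to lower in females. Leaving out 1 library gave 28 to 29 higher and 2 to 4 lower.

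In total mRNA between the sexes, against 12 higher and 2 lower in males, a replicate block gave 23 and 1, library totals 30 and 0, gene sums 20 higher, an FDR below 0.05 gave 1 and 0, no filter 1 lower and the most 5′ exon 1 lower. Leaving out 1 library gave 1 to 22 higher and 0 to 2 lower. The labels do not say whether the replicate numbers pair the sexes or the male fractions, so that these block values rest on a shared number only. In the interaction, library totals gave 15 members lower against 0. For total mRNA between the sexes and for the interaction, the shares of all genes called in these alternative runs are not given. The counts alone therefore do not set the members apart from other genes. In TRAP between the sexes the count was 0 under every alternative run. The *CadN* shares, added after seeing the data, differed by 14.7 to 17.4 percentage points in males and 8.76 to 14.2 in females when 1 library was left out. The causes of these shifts were not tested. The filter on low counts left out 5 members, and without it all 43 were tested and none of the 5 was called.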
